A study of Rattus norvegicus with 3 samples.

Results

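The transcripts of 8 subunits or enzymes of the mitochondrial tricarboxylic acid cycle and of the cytosolic malate dehydrogenase, 9 in all, were followed in rat skeletal muscle: Cs, Idh2, Idh3a, Idh3b, Idh3g, Ogdh, Suclg1, Mdh1 and Mdh2. They were taken by gene name, through the RefSeq accession of each probe, with earlier results of these arrays known. All 9 were found among the 15168 genes that the arrays could name, each through 1 probe printed on 2 spots. The arrays were 3 in number, 1 per group: the soleus of rats 28 days after a transection of about 5 mm of the left sciatic nerve, the plantaris of normal rats and the soleus of normal rats. All were male rats of the strain background Wistar Honnover, labelled as 12 weeks old. The normal rats had no treatment, so no sham operation stands behind the controls. The normal soleus array was placed by its source name, since its title reads only "Post". The labels do not say how many animals gave RNA to an array.

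Citrate synthase (Cs) opens the cycle by joining acetyl-CoA to oxaloacetate, and isocitrate dehydrogenases, the 2-oxoglutarate dehydrogenase complex, succinyl-CoA ligase, succinate dehydrogenase, fumarase and malate dehydrogenase carry the carbon back to oxaloacetate while reducing NAD and FAD for the respiratory chain. Mdh2 is the malate dehydrogenase of the mitochondrial matrix and closes the cycle, whereas Mdh1 is its cytosolic counterpart in the malate-aspartate shuttle, which brings reducing equivalents from glycolysis into mitochondria. The soleus is a postural muscle made mostly of slow, oxidative fibres, and the plantaris is a mixed muscle with many fast fibres. Citrate synthase is widely used as a marker of the mitochondrial content of muscle.

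The upstream sequences of 3 of the genes are shown because the results below turn on the malate dehydrogenase pair and on differences among the subunits of isocitrate dehydrogenase 3. They are the 250 bases before the annotated start, from RefSeq on the rat build GRCr8, read 5′ to 3′ on the strand of the gene. Capitals mark the letters CCGGAAG (an ETS-type motif) and GGGCGG (an SP1-type motif) on either strand. The Mdh1 window, which holds neither, lies at chr14:99847228-99847477 on the minus strand, the Mdh2 window at chr12:26543842-26544091 on the minus strand and the Idh3g window at chrX:156675483-156675732 on the minus strand.
Mdh1: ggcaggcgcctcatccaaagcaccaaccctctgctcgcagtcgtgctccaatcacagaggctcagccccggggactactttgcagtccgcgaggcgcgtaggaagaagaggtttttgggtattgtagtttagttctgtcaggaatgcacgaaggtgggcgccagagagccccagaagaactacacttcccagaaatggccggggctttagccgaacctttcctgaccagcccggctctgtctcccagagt
Mdh2: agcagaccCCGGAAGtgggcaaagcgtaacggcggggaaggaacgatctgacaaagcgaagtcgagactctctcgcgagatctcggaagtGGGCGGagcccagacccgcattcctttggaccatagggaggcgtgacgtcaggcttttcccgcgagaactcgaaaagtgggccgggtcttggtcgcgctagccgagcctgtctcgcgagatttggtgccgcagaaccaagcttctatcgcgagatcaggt
Idh3g: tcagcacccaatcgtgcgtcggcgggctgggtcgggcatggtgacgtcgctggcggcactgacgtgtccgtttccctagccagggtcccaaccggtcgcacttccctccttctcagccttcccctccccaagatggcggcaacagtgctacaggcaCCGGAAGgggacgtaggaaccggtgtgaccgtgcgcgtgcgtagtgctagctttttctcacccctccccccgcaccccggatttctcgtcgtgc

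Promoter windows, here 250 bases before to 50 after the start, were held by the RefSeq table for 8 of the 9 genes (not for Idh3a), among 33469 windows in all. CCGGAAG was found on either strand in 3 of the 8 (Idh3b, Idh3g and Mdh2), against 8.75% of all windows and 17.6% of the 8497 windows of genes well above background on the 3 arrays. GGGCGG was found in 4 of the 8 (Cs, Idh2, Ogdh and Mdh2), against 33.1% of all windows and 60.2% of the windows of those measured genes. The E-box letters CANNTG were found in 3 of the 8 (Cs, Ogdh and Mdh2), against 72.1% of all windows and 63.4% of those of measured genes. AAGGTCA, the core letters of an oestrogen-related receptor site, and GCGCATGC, the letters of an NRF1 site, were in 0 of the 8 windows, against 4.61% and 2.47% of all windows and 2.94% and 4.87% of those of measured genes, which says only that these exact letters do not occur in these windows. These matches describe the letters and are no evidence of binding.

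Each signal is divided by the 75th percentile of all non-control spots on its own array, since the arrays were deposited without normalization between them, and a fold is the difference of such log2 signals. The ± beside a fold, called the scanner error, comes from the signal error that the scanner software reports. That error was nearly the same for all 9 genes whatever their signal (0.144 to 0.145 log2 units on an array), so it is no measured spread of repeat spots. With 1 array per group there is no error across animals and no test. A gene is counted as higher or lower where the fold is at least 2-fold, which is 1 log2 unit. The processed signals of the 9 genes ran from 676 to 207031, while the faintest signals well above background lay between 16.7 and 22.7 on the 3 arrays. The spots of a gene agreed closely: over 27 spot pairs the median gap was 0.06 and the largest 0.18 log2 units. The share of probes well above background was 64.2% to 67.0% per array, and 0 spots were saturated. The denervated soleus array lay on another slide and scan than the normal plantaris and normal soleus arrays, so slide and denervation cannot be told apart.

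On the denervated soleus array all 9 transcripts read below the normal soleus array, and 7 of the 9 were at least 2-fold lower. The cytosolic malate dehydrogenase Mdh1 was lowest, at 18.8% of its normal soleus signal. The median log2 fold over the 9 was -1.49, against 0.02 over all 11318 genes measured in this comparison. Of all those genes 13.4% were at least 2-fold lower and 8.71% at least 2-fold higher (1518 and 986 genes). Among the 3158 genes whose brightness fell within that of the 9, 13.5% were at least 2-fold lower and the median log2 fold was -0.11. In the authors' deposited values, which scale the arrays otherwise, 6 of the 9 were at least 2-fold lower in denervated soleus. Of all 11318 genes, 1107 were at least 2-fold lower there and 1568 at least 2-fold higher.

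What the fall is measured against matters here. The 4 genes listed as skeletal muscle fibre markers were also lower in denervated soleus. Acta1, skeletal muscle actin, had a log2 fold of -2.44 and Ckm, muscle creatine kinase, -1.48. Des, the filament protein desmin, had -1.21 and Mb, myoglobin, -0.18. The median of these 4 fibre genes was -1.34, and the median of the 9 genes lay only 0.15 log2 units from it (members minus fibre genes -0.15). When that median fold was subtracted from every fold, 1 of the 9 stayed at least 2-fold lower (Mdh1, -1.07), and the median of the 9 became -0.15. When each array was centred on the median level of the 4 fibre genes instead, 0 of the 9 were at least 2-fold lower, 2 were at least 2-fold higher (Idh3a, 1.20, and Idh3g, 1.08) and the median became 0.47. Both of these settings were chosen after seeing the data, and both move all genes, by 1.34 and 1.96 log2 units. The 9 transcripts were therefore lower in denervated soleus relative to the bulk of measured genes, whereas relative to the fibre genes their median lay near or above 0. Every direction given below for denervated soleus is relative to the bulk of genes.

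Markers of some other cells moved in the same comparison, while others hardly did. The macrophage sum over 8 genes was 52.7 in denervated soleus and 50.1 in normal soleus. The blood cell sum over 3 genes was 109 in denervated soleus and 107 in normal soleus. Of 6 Schwann cell and nerve genes 3 were at least 2-fold lower and 1 at least 2-fold higher, against 13.4% and 8.71% of all genes. The summed signal of the 6 fat cell genes on the array was 67.7 on the denervated soleus array, against 15.4 on the normal soleus array. Cfd was the brightest and weighs most in that sum (log2 signal 5.63 in denervated soleus, against 2.89 for Adipoq, the next). Of 5 fat cell genes measured 4 were at least 2-fold higher in denervated soleus (Adipoq, 3.65, Cidec, 2.83, Retn, 2.68, and Cfd, 2.40), while Fabp4 had 0.51. Lep, the leptin gene, was not well above background on any array. The sum over 9 fibroblast and tendon genes was 372 in denervated soleus and 178 in normal soleus. It was 357 in normal plantaris, so a sum above that of normal soleus was not particular to denervated soleus. All 9 of these genes were above 0 in denervated soleus over normal soleus, and 2 were at least 2-fold higher (Comp, 2.77, and Fmod, 2.11). The sum over the 4 fibre genes was 721 in denervated soleus and 1404 in normal soleus, and that over 6 endothelial genes 7.05 in denervated soleus and 13.0 in normal soleus. Of the endothelial genes 3 were at least 2-fold lower in denervated soleus (Cdh5, -2.30, Kdr, -1.39, and Flt1, -1.29), while Pecam1 (-0.20), Tek (0.22) and Emcn (0.21) were not. The slow fibre sum over 7 genes was 1238 in denervated soleus and 2888 in normal soleus, and the fast fibre sum over 8 genes 909 in denervated soleus and 748 in normal soleus. The fast fibre sum hides large single folds: 4 of the 8 genes were at least 2-fold higher in denervated soleus (Pvalb, 6.02, Actn3, 5.15, Myh1, 4.43, and Myh4, 1.30), while Atp2a1 had -0.85. Their part in the values of the 9 transcripts was not tested, and in whole muscle fewer cells of a type cannot be told apart from less RNA per cell.

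**Figure D1:**
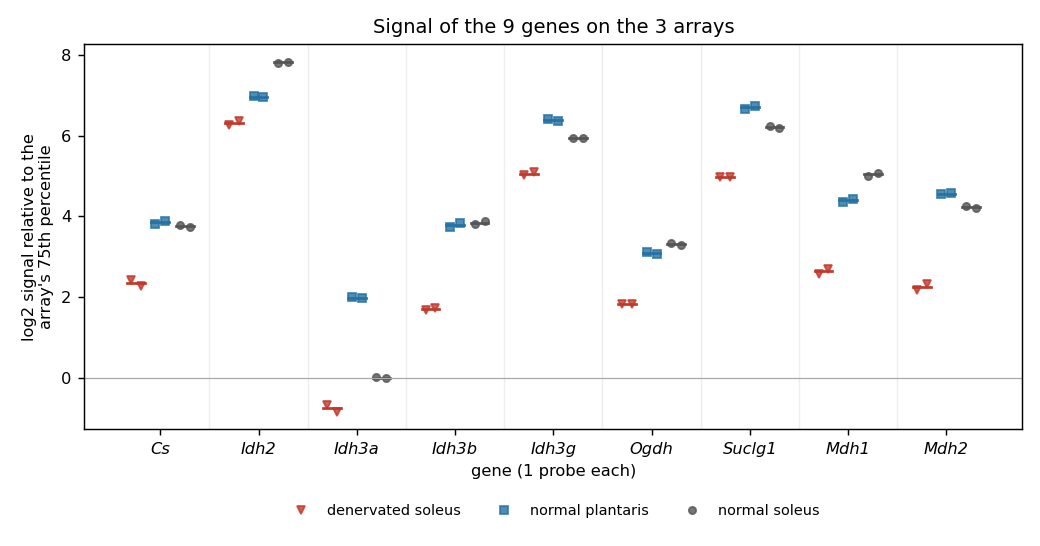
Log2 signal of the 9 genes relative to the 75th percentile of each array, on the denervated soleus, normal plantaris and normal soleus arrays. Points are the 2 spots of a probe and the bar is their mean; the denervated soleus points lie below the other arrays for all 9 genes, and Idh3a stands out by its normal plantaris value. Levels of different genes come from different probes and are not comparable with each other.

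Citrate synthase, at the entry of the cycle, had relative signals of 5.09 on the denervated soleus array, 14.5 on the normal plantaris array and 13.5 on the normal soleus array. It was low in denervated soleus alone: the log2 fold against normal soleus was -1.41 ± 0.20. Normal plantaris and normal soleus differed by 0.10 ± 0.20, within the scanner error, although their spots did not overlap.

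Idh2 encodes the NADP-dependent isocitrate dehydrogenase of the matrix. Its relative signal was 79.9 in denervated soleus, 125 in normal plantaris and 227 in normal soleus, and no spots of these arrays overlapped. The log2 fold was -1.51 ± 0.20 for denervated soleus over normal soleus and -0.86 ± 0.20 for normal plantaris over normal soleus. Unlike Cs, Idh2 thus separated the normal muscles too, with normal soleus the highest, although the plantaris difference stayed short of 2-fold; it reached -1.23 under quantile normalization.

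The NAD-dependent isocitrate dehydrogenase 3, a regulated step of the cycle, is built of a catalytic alpha subunit (Idh3a) and of beta and gamma subunits (Idh3b and Idh3g). Their transcripts did not move as a unit. Idh3a had relative signals of 0.59 in denervated soleus, 3.95 in normal plantaris and 1.001 in normal soleus. Its log2 fold in denervated soleus was -0.76 ± 0.20, the nearest to 0 of the 9 at this scaling. In normal plantaris it was 1.98 ± 0.20, the only one of the 9 at least 2-fold apart between the normal muscles. Idh3b had relative signals of 3.27 in denervated soleus, 13.8 in normal plantaris and 14.4 in normal soleus. Its log2 fold was -2.14 ± 0.20 in denervated soleus, and the normal muscles overlapped with a difference of -0.06 ± 0.20. Idh3g had relative signals of 33.4 in denervated soleus, 83.7 in normal plantaris and 61.5 in normal soleus, with log2 folds of -0.88 ± 0.20 in denervated soleus and 0.45 ± 0.20 in normal plantaris.

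Set against each other, the fold of Idh3b in denervated soleus over normal soleus lay 1.26 ± 0.29 log2 units below that of Idh3g (Idh3b minus Idh3g, -1.26), and the fold of Idh3a lay 1.38 ± 0.29 above that of Idh3b. Idh3a and Idh3g differed by 0.12 ± 0.29, within the scanner error. In normal plantaris over normal soleus the fold of Idh3a exceeded that of Idh3b by 2.04 ± 0.29 and that of Idh3g by 1.53 ± 0.29. These differences of folds within an array pair do not depend on how the arrays were centred, but quantile normalization moves them. Under it Idh3a had -0.79 and Idh3g -0.47 in denervated soleus over normal soleus, so Idh3g was then the nearer to 0. Each subunit rests on 1 probe, and no second probe could check the Idh3a value.

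Ogdh, the E1 component of the 2-oxoglutarate dehydrogenase complex, had relative signals of 3.53 in denervated soleus, 8.54 in normal plantaris and 9.93 in normal soleus. Its log2 fold was -1.49 ± 0.20 in denervated soleus and -0.22 ± 0.20 in normal plantaris. Suclg1, the alpha subunit of succinyl-CoA ligase, had relative signals of 31.6 in denervated soleus, 105 in normal plantaris and 74.5 in normal soleus. Its log2 fold was -1.24 ± 0.20 in denervated soleus and 0.49 ± 0.20 in normal plantaris. Suclg1 was thus low in denervated soleus and, short of 2-fold, highest in normal plantaris, and under quantile normalization (-0.80) and in the authors' deposited values (-0.99) its fold in denervated soleus missed 2-fold.

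The malate dehydrogenases had, with Idh3b, the 3 lowest folds of the set in denervated soleus. Mdh1 had relative signals of 6.21 in denervated soleus, 21.0 in normal plantaris and 33.0 in normal soleus, and log2 folds of -2.41 ± 0.20 in denervated soleus and -0.65 ± 0.20 in normal plantaris. Mdh2 had relative signals of 4.78 in denervated soleus, 23.7 in normal plantaris and 18.8 in normal soleus, and log2 folds of -1.97 ± 0.20 in denervated soleus and 0.33 ± 0.20 in normal plantaris. The cytosolic and the mitochondrial enzyme thus stood in opposite order in the normal muscles, Mdh1 being higher in normal soleus and Mdh2 in normal plantaris, each by less than 2-fold. The folds of the pair (Mdh1 minus Mdh2) differed by -0.99 ± 0.29 in normal plantaris and by -0.44 ± 0.29 in denervated soleus, both against normal soleus. Centring on the level of the fibre genes turned the small Mdh2 difference between the normal muscles to -0.13.

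**Figure D2:**
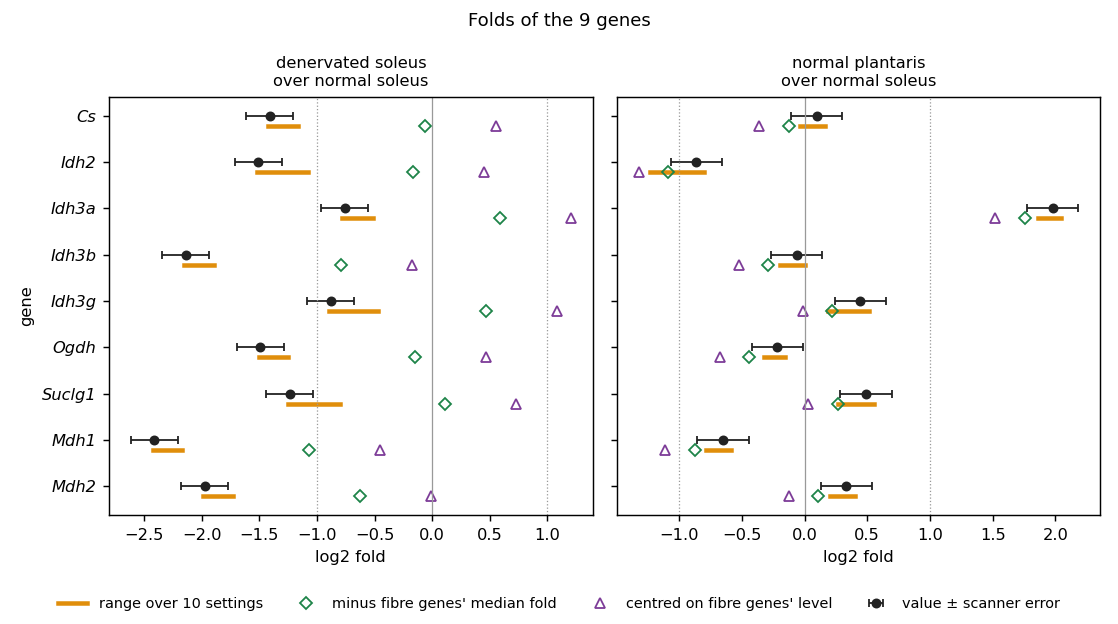
Log2 fold of the 9 genes for denervated soleus over normal soleus (left) and normal plantaris over normal soleus (right). Black points carry the scanner error, bars below them span the main value and 9 planned settings, and open symbols show the folds relative to the 4 muscle fibre genes by 2 centrings; dotted lines mark 2-fold. In denervated soleus the planned settings keep all 9 folds below 0, whereas centring on the level of the fibre genes puts 6 of the 9 above 0.

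Between the normal muscles the median of the set and its share past 2-fold lay near those of all genes. Of the 9 genes 1 was at least 2-fold higher in normal plantaris than in normal soleus (Idh3a) and 0 were at least 2-fold lower, against 5.71% and 6.02% of all 11015 genes measured in this comparison. The median log2 fold was 0.10, against 0.02 over all genes. When each array was centred on the level of the fibre genes, Idh2 (-1.32) and Mdh1 (-1.11) were at least 2-fold lower in normal plantaris. The highest of the 3 arrays was normal plantaris for 5 genes (Cs, Idh3a, Idh3g, Suclg1 and Mdh2) and normal soleus for 4 (Idh2, Idh3b, Ogdh and Mdh1), but for Cs and Idh3b the normal muscles differed by no more than the scanner error. The labels name the muscles and give no fibre type, but the fibre markers differed between the arrays. The slow fibre sum was 532 in normal plantaris and 2888 in normal soleus, and the fast fibre sum 4749 in normal plantaris and 748 in normal soleus.

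Denervated soleus was the lowest of the 3 arrays for all 9 genes, except that under quantile normalization Idh2 read 0.15 log2 units higher in denervated soleus than in normal plantaris, and that centring on the fibre genes ended this order. Against normal plantaris, 8 of the 9 were at least 2-fold lower in denervated soleus, against 16.7% of all 11371 genes measured, and the median log2 fold was -1.73. Idh3a had the lowest fold, -2.74 ± 0.20, and Idh2 the highest, -0.65 ± 0.20. In the authors' deposited values 6 of the 9 passed, and the genes at least 2-fold apart there were 2443 higher and 1213 lower, against 1344 higher and 1899 lower at the main scaling. Relative to the median fold of the fibre genes the median of the 9 was 0.20. This comparison shares an array with each of the other comparisons and is the difference of their folds, so it adds no separate evidence.

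**Figure D3:**
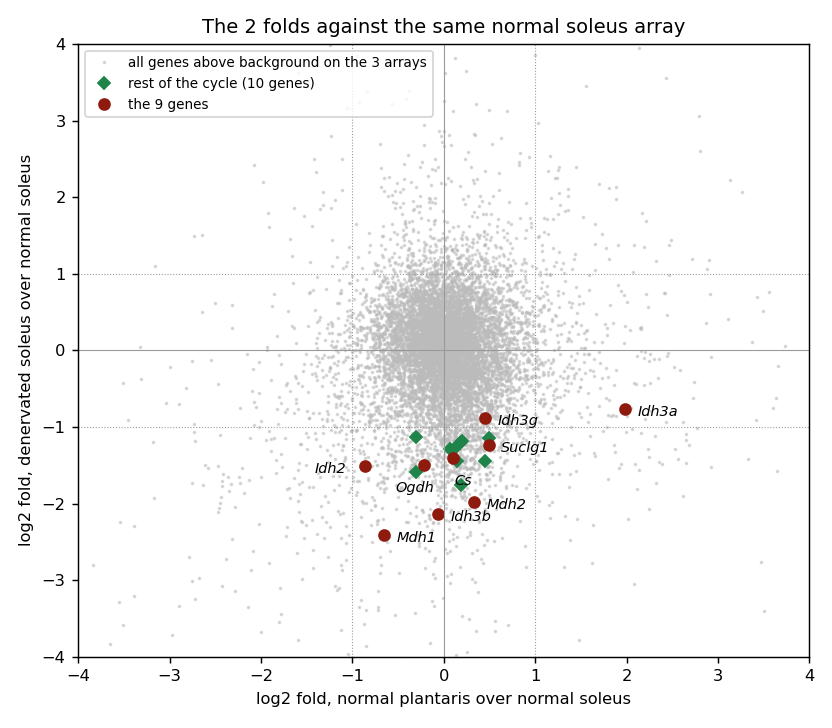
Log2 fold of normal plantaris over normal soleus (horizontal) against denervated soleus over normal soleus (vertical). Grey points are genes well above background on the 3 arrays, diamonds the 10 other cycle genes and circles the 9 genes; both axes end at 4 log2 units, so genes farther out are not drawn, and the axes share the normal soleus array. The 9 genes lie below 0 on the vertical axis and, apart from Idh3a, within 1 log2 unit of 0 on the horizontal axis.

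By closeness in this plane of folds, among 9846 genes well above background on the 3 arrays, the 5 nearest to Idh3a were Vax2, Or6k4, Tpi1l1, Ankrd9 and Or52n4d, at distances of 0.07 to 0.18 log2 units. Vax2, Or52n4d and Or6k4 were faint, with relative signals of 0.022, 0.041 and 0.068 in denervated soleus, against 0.59 for Idh3a. Among the 5 nearest to the median of the 9 genes were Coq5, Tead1, Cox6b1 and Recql4, at 0.01 to 0.06. The measure rests on 3 arrays, so that genes with no other relation can lie close together.

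The other cycle genes were lower in denervated soleus as well. Of the 10 on the list, among them the subunits of succinate dehydrogenase and the beta subunits of succinyl-CoA ligase, 10 were at least 2-fold lower in denervated soleus than in normal soleus, with a median log2 fold of -1.29. Sdhc, a membrane anchor of succinate dehydrogenase, had -1.75, Sdhb, its iron-sulfur subunit, -1.59, and Fh, fumarase, -1.45. In normal plantaris over normal soleus 0 of these 10 passed 2-fold and the median was 0.16. Relative to the median fold of the fibre genes their median in denervated soleus was 0.06. The counts of this list and of those below stand against the shares of all genes. In denervated soleus over normal soleus these were 13.4% lower and 8.71% higher. In normal plantaris over normal soleus they were 6.02% lower and 5.71% higher.

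Upstream of the cycle, pyruvate entry moved the same way. Of 6 genes measured, 4 were at least 2-fold lower in denervated soleus: Mpc1 (-2.56) and Mpc2 (-1.89), the mitochondrial pyruvate carrier, and Dlat (-1.92) and Pdhb (-1.47), subunits of pyruvate dehydrogenase. Pc, pyruvate carboxylase, had 0.29. Of 7 pyruvate dehydrogenase kinases and phosphatases 5 were at least 2-fold lower, among them Pdk4 (-1.79), Pdk1 (-1.71) and Pdk2 (-1.42), and Pdk3 was at least 2-fold higher (1.43, but 0.44 with normexp background correction). In normal plantaris over normal soleus 0 of the 6 entry genes passed 2-fold, while Pdk1 (-1.55) and Pdp2, a phosphatase (-1.56), were lower.

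Mdh1 works with cytosolic aspartate aminotransferase, Got1, which was the only 1 of 3 shuttle partners measured to pass 2-fold in denervated soleus (-1.67). Got2, the mitochondrial aminotransferase, had -0.79 and Slc25a11, the oxoglutarate carrier, -0.50. Of 6 genes on a list of mostly cytosolic or NADP-linked counterparts 0 passed 2-fold in denervated soleus. Me2, the highest of the 6 (0.79), was not well above background in normal soleus, so its fold depends on how faint signal is treated. Of all genes 13.4% passed lower and 8.71% higher, so 0 of only 6 genes is not far from that share. The median log2 fold of the 6 was 0.39 and became -0.02 with normexp background correction. Among them Idh1, the cytosolic NADP-dependent isocitrate dehydrogenase, had 0.42, against -1.51 for the mitochondrial Idh2. Me1, cytosolic malic enzyme, had 1.11 in normal plantaris over normal soleus, and 0.97 under quantile normalization. Of the 8 related lists, the glycerol phosphate and lactate genes had the median farthest from 0 between the normal muscles (1.97). Gpd1 (3.41), Ldha (2.59) and Gpd2 (1.34) were higher in normal plantaris, and Ldhb (-2.23) was lower. In denervated soleus Ldhb was again lower (-1.74), and the other 3 of that list stayed short of 2-fold.

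Among 6 genes that tie the cycle to amino acids, ketone bodies and NADP, 4 were at least 2-fold lower in denervated soleus: Oxct1, which activates ketone bodies (-2.43), Nnt, the transhydrogenase of the inner membrane (-1.70), Acat1 (-1.54) and Bdh1. Bdh1 was not well above background in denervated soleus, so its log2 fold depends on how faint signal is treated: it was -4.84 here and -2.49 with normexp background correction. Of 11 regulators of mitochondrial genes 6 were at least 2-fold lower in denervated soleus. Perm1, a muscle regulator of oxidative genes, had -7.95 (-6.41 with normexp), Ppargc1b, a coactivator, -2.35, the deacetylase Sirt3 -1.71 and the nuclear receptor Esrra -1.66. Ppargc1a, the related coactivator, had -0.19. In normal plantaris over normal soleus 1 of 10 measured regulators passed 2-fold (Esrrg, -1.25, but -0.41 with normexp).

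**Figure D4:**
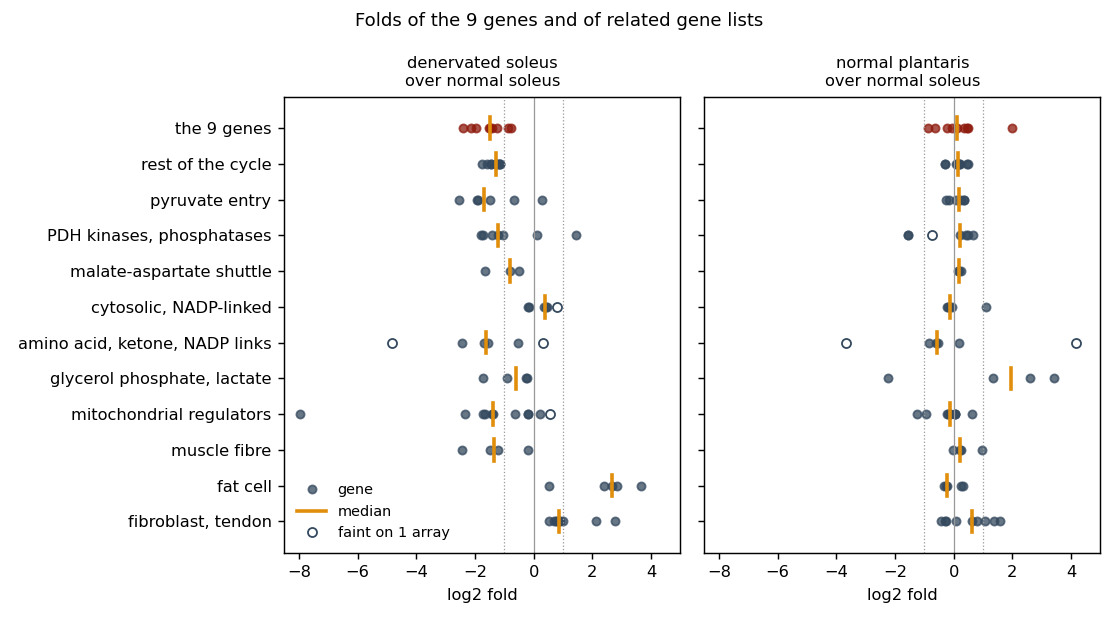
Log2 folds of the 9 genes, of 8 related lists and of 3 marker lists for denervated soleus over normal soleus (left) and normal plantaris over normal soleus (right). Each point is a gene, open points are genes well above background on only 1 of the 2 arrays, the upright bar is the median and dotted lines mark 2-fold. On the left the muscle fibre median (-1.34) lies close to that of the 9 genes (-1.49), and the fat cell genes lie to the right; on the right most cycle genes lie between the dotted lines.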

How the data were processed

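Messenger RNA was measured on 3 one-colour Agilent arrays. Per the file headers and the submitters' processing notes, spots were quantified with Agilent Feature Extraction 10.10.1.1; its processed signal, used here, is a linear intensity from which that software had subtracted background, without normalization between arrays. Per the file headers, other columns hold flags for outlier, saturated and well-above-background spots. The value table deposited by the authors also holds intensity, which is the scanner's processed signal multiplied by a constant on each array (1.41 for denervated soleus, 1.80 for normal plantaris and 1.60 for normal soleus), of unstated origin.

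Here log2 processed signals of the 58717 non-control spots were centred on their 75th percentile within each array. Spots with an outlier flag (467 to 569 per array) were left out and repeat spots averaged. Probes were named by RefSeq accession (18005 of 30367, giving 15168 genes), and the brightest probe stood for a gene. A probe was well above background where at least 50% of its spots were, and genes above background on either array were compared. With only 1 array above background, the fold depends on how faint signal is treated. The number of arrays limits the precision, and no test across samples was possible.

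The 9 genes, the lists and the settings were chosen with earlier results of these data known. All 9 genes are named whatever their values, with up to 4 of each list by size of fold and the 5 nearest genes; some genes that the rule takes are not reported here. Of 9 planned settings, normexp background correction (limma 3.58.1, R 4.3.3, offset 50) used the median spot intensity, since the files give no mean. A further 2 settings, both relative to the muscle fibre genes, were added after the data were seen; the list holds 5 genes, of which 4 are on the array. The procedure was tested on simulated data. A slide block was not run, since the denervated array is alone on its slide.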

Additional observations from a re-analysis of the deposited data

How the results depend on the processing

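The 9 planned settings kept all 9 genes below 0 in denervated soleus over normal soleus, and the number at least 2-fold lower stayed at 6 or 7. Against normal plantaris it stayed between 6 and 8, with 1 fold above 0 (Idh2, 0.15, under quantile normalization). The median of the 9 was -1.18 under quantile normalization and -1.25 in the authors' deposited values for denervated soleus over normal soleus, and -1.14 and -1.37 under those settings for denervated soleus over normal plantaris. Quantile normalization gave 2 genes past 2-fold between the normal muscles. The counts of all genes past 2-fold moved more. With normexp they were 367 higher and 1001 lower (denervated soleus over normal soleus), 309 higher and 282 lower (normal plantaris over normal soleus) and 504 higher (denervated soleus over normal plantaris). The authors' values gave 1568 higher, and 2443 higher and 1213 lower against normal plantaris, with all genes shifted by 0.24 and 0.35 log2 units. A filter on both arrays left 433 lower in normal plantaris. The cause was not tested.

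Centring each array on the median level of the 4 muscle fibre genes, chosen after seeing the data, reversed the denervation result. For denervated soleus over normal soleus it gave 2 of the 9 genes past 2-fold, both higher, and a median of 0.47, with Cs at 0.55, Idh2 at 0.45, Ogdh at 0.47 and Suclg1 at 0.73, and 9634 of all genes higher and 116 lower. List medians turned too: 0.67 for the rest of the cycle, 0.28 for pyruvate entry, 0.74 for the pyruvate dehydrogenase kinases and phosphatases, 0.34 for the amino acid and NADP links and 0.59 for the regulators. So did the folds of Acat1 (0.42), Dlat (0.044), Esrra (0.30), Fh (0.51), Got1 (0.29), Ldhb (0.22), Mpc2 (0.076), Nnt (0.26), Pdhb (0.49), Pdk1 (0.25), Pdk2 (0.54), Pdk4 (0.17), Sdhb (0.38), Sdhc (0.21) and Sirt3 (0.25). For denervated soleus over normal plantaris it gave 3 genes past 2-fold, all higher, and a median of 0.70, with Cs at 0.92, Idh3b at 0.35, Idh3g at 1.096, Ogdh at 1.15, Suclg1 at 0.70, Mdh1 at 0.66 and Mdh2 at 0.11, and 10044 genes higher and 95 lower. For normal plantaris over normal soleus it gave 3 genes past 2-fold and a median of -0.36, with 291 genes higher and 1532 lower.

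Subtracting the median fold of the same 4 genes, also chosen after seeing the data, gave for denervated soleus over normal soleus 1 gene past 2-fold and a median of -0.15, with Suclg1 at 0.11, the rest of the cycle at 0.058 and the kinases and phosphatases at 0.12, and 7839 genes higher and 229 lower. For denervated soleus over normal plantaris it gave 1 gene past 2-fold, higher, and a median of 0.20, with Cs at 0.42, Idh3g at 0.60, Ogdh at 0.66, Suclg1 at 0.20 and Mdh1 at 0.17, and 9305 genes higher and 151 lower. For normal plantaris over normal soleus it gave 2 genes past 2-fold and a median of -0.13. The members' median minus that of all genes stayed at -1.51 for denervated soleus over normal soleus under both centrings, by their construction.

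No paired analysis was possible because each group has 1 array, and a slide block was not run because the denervated array is alone on its slide. With 1 array per group, differences between animals could not be measured at all, and no result here can be read as holding beyond these RNA samples.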
